A study of Homo sapiens with 3 samples.

Results

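The genes described here encode the machinery of RNA polymerases I and III, whose messenger RNA was measured in A498, a cell line from a human kidney carcinoma. They were taken by symbol: every probe set annotated to a single gene whose symbol begins with POLR1, POLR3, GTF3C or SNAPC, or is GTF3A, BRF1, BRF2, BDP1, TAF1A, TAF1B, TAF1C, TAF1D, UBTF or RRN3. CD3EAP, ZNRD1 and TWISTNB, also in the rule, are listed under their current symbols POLR1G, POLR1H and POLR1F. The rule found 115 of the 45259 probe sets with 1 gene, for 39 of 18239 genes. Of these genes 38 encode components of the machinery, with 114 probe sets. The remaining one, POLR1HASP, is a transcribed pseudogene caught by its letters alone, read 3.30 (log2) on the control array, below the filter given next, and is left aside.

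All cultures received fresh serum-free medium with gentamicin, and RNA was taken after 4 h. The control culture held 0.08% DMSO, another culture was infected with E. coli 83972, and the last received 60 µM DRB. DMSO is given in the labels of the control alone, and the labels disagree on the bacterial concentration. Each group is 1 array of the experiment numbered 2, so there are no replicates, no test was possible, and each difference compares arrays rather than conditions.

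A level is the deposited log2 probe-set value, and a difference is the level on one array minus that on another, where 1 stands for 2-fold. Each gene was read from the probe set that was brightest on average, and was kept if it reached 4.88, the median over every value of the table, on at least 1 array. This kept 36 of the 38 components, read by 85 probe sets that reached that level, and 11653 genes in all. POLR3G and SNAPC2 did not reach it, with levels of 3.98 to 4.13 and 4.33 to 4.36. As a gauge of technical error, the differences of the brightest 2 passing probe sets were compared for 6317 genes. The standard deviation of their disagreement was divided by the square root of 2, to stand for 1 probe set. This gave 0.32 for DRB against control, 0.18 for E. coli 83972 against control and 0.35 for DRB against E. coli 83972. The gauge holds no variation between cultures.

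RNA polymerase I transcribes the large ribosomal RNA precursor in the nucleolus, and RNA polymerase III makes the 5S ribosomal RNA, transfer RNAs and small RNAs such as U6 and 7SK. Each needs its own initiation factors: UBTF, RRN3 and the TAF1 subunits of selectivity factor 1 for polymerase I, and TFIIIA, TFIIIB and TFIIIC for polymerase III, while the snRNA activating complex SNAPc serves U6 and 7SK as well as the polymerase II snRNA genes. The messenger RNAs of all these proteins are themselves made by polymerase II. DRB, a purine-like nucleoside, inhibits the kinase of P-TEFb, which releases paused polymerase II into elongation, and 7SK RNA is part of the complex that holds P-TEFb inactive. The arrays measured messenger RNA, not the products of polymerases I and III.

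With DRB, 7 of the 36 kept components (19.4%) were at least 2-fold lower than control, beside 10.2% of all kept genes, and 0 were at least 2-fold higher, beside 0.129% of all. They were TAF1A, POLR3F, BDP1, POLR3B, POLR1B, SNAPC1 and POLR1H. The median difference of the 36 was −0.36, whereas that of all kept genes was 0.05, and 28 of the 36 lay below 0, against 44.2% of all genes. With E. coli 83972, 0 of the 36 were at least 2-fold lower, beside 0.652% of all kept genes, and 0 were at least 2-fold higher, beside 1.91%. Their median was 0.03, with 17 below 0 and 19 above, against −0.03 for all genes. In a bulk extract, fewer cells with a transcript and less transcript per cell cannot be told apart.

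**Figure D1:**
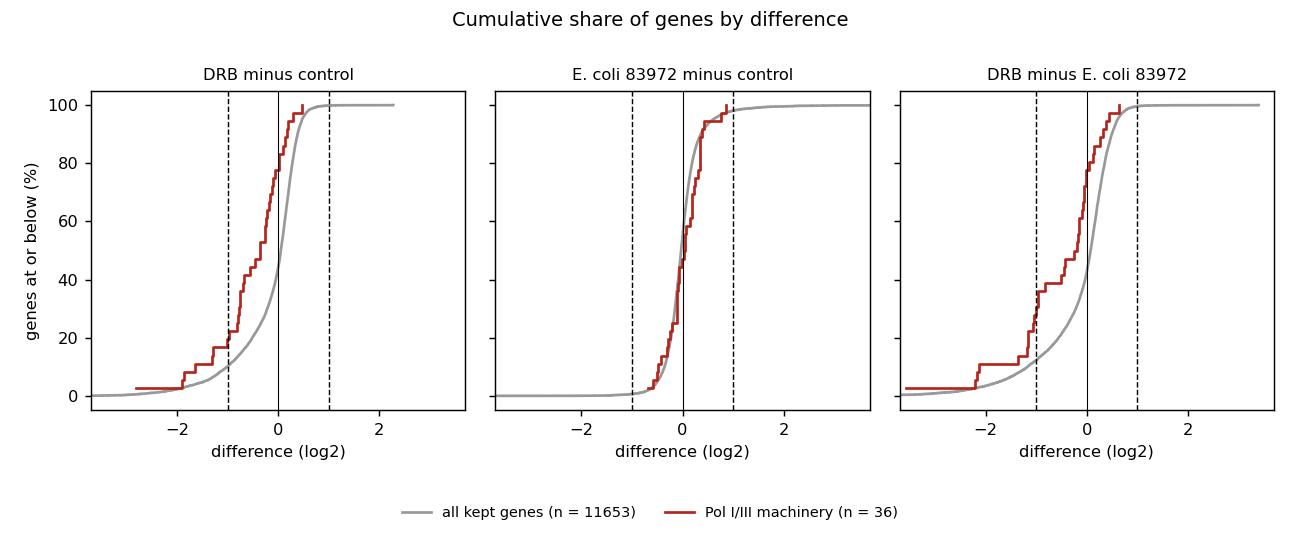
Cumulative share of genes (vertical axis, percent) by log2 difference (horizontal axis) for each pair of arrays, with the 36 kept components in red and all 11653 kept genes in grey; dashed lines mark 2-fold. The red curve lies left of the grey one, or on it near its lower end, in both panels with DRB, where 7 and 10 components are at least 2-fold lower, and stays within 2-fold in the E. coli 83972 panel.

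TAF1A, a TBP-associated subunit of selectivity factor 1, had the lowest difference with DRB. Its level was 7.27 in control, 8.02 with E. coli 83972 and 4.45 with DRB, so it was 7.03-fold lower on the DRB array (−2.81), and only 0.532% of kept genes had a lower difference. All 4 of its passing probe sets were at least 2-fold lower, averaging −2.05 ± 0.58 (SD over 4 probe sets). The DRB level was under 4.88, where values are compressed, so the size is uncertain. The DRB array was the low one and the E. coli 83972 array the high one for all 4 probe sets.

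POLR3F, which joins POLR3C and POLR3G or POLR3GL in the polymerase III subcomplex for initiation, read 7.23 in control, 7.46 with E. coli 83972 and 5.33 with DRB. It was 3.73-fold lower with DRB (−1.90), and both of its probe sets were at least 2-fold lower (average −1.75 ± 0.22, SD over 2 probe sets). BDP1, the TFIIIB subunit that helps open promoter DNA, read 7.94, 8.29 and 6.09 in the same order and was 3.61-fold lower with DRB (−1.85). BDP1 rests on 1 passing probe set of 3: the mean over all 3 differed by −0.63, under 2-fold. SNAPC1, a core SNAPc subunit, read 7.51, 8.38 and 6.21 and was 2.46-fold lower with DRB (−1.30). Its dimmer probe set differed by −0.53, so the mean of the pair was −0.91 ± 0.54 (SD over 2 probe sets), also under 2-fold.

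The 250 bases before the annotated start of these 4 genes, which had the lowest difference with DRB in their own factor or subcomplex, are shown with the corresponding stretch of GTF3A, which encodes TFIIIA and differed from control by 0.13 with DRB. Sequences and positions are those of RefSeq on GRCh38.p14, written 5′ to 3′ on the strand of the gene. Capitals mark matches, on either strand, to the TATA box (TATAAA), the CCAAT box (CCAAT), the GC box (GGGCGG), an ETS-type core (CCGGAAG) or the E-box (CACGTG). No motif overlapped another in the stretches shown.
TAF1A, chr1:222589934-222590183, minus strand: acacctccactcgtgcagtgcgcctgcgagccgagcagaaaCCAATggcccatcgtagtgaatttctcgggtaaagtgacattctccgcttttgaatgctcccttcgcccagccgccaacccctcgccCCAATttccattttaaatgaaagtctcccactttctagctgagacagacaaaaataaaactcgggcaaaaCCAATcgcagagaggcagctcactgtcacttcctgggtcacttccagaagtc
POLR3F, chr20:18467140-18467389, plus strand: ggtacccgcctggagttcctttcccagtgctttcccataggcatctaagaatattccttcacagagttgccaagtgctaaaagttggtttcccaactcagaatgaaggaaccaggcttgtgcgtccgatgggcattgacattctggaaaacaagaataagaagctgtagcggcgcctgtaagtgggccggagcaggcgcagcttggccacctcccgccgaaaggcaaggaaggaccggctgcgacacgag
BDP1, chr5:71455401-71455650, plus strand: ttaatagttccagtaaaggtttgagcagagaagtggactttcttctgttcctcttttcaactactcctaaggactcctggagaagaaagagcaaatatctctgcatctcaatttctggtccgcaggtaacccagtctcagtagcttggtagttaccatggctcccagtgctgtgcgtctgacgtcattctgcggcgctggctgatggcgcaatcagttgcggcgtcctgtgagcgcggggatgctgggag
SNAPC1, chr14:61762170-61762419, plus strand: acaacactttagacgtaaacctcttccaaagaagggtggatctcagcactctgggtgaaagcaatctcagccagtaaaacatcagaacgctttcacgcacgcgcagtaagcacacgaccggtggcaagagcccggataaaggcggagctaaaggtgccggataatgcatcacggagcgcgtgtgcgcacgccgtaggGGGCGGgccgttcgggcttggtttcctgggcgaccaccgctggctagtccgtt
GTF3A, chr13:27424369-27424618, plus strand: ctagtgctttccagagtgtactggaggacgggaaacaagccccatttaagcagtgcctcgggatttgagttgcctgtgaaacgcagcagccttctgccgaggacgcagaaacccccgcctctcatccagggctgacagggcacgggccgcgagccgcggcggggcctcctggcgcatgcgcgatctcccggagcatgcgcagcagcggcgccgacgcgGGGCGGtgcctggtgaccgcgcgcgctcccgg

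The TAF1A stretch held 3 CCAAT matches, first bases 209, 122 and 52 before the start, and its GC content was 51.6%. The SNAPC1 stretch held 1 GC box, and the stretches of POLR3F and BDP1 held no match to these letters. GTF3A had 1 GC box, with a GC content of 68.4%. Of the 38 components 33 were found in the promoter table, and POLR1E, POLR3D, POLR3G, BRF2 and SNAPC4 were not. CCAAT stood in 11 of the 33 stretches (33.3%) and in 33.0% of 27305 promoters of equal length, and the GC box in 18 (54.5%) and 42.3%. The ETS-type core stood in 8 (24.2%) against 8.82% of all, and the E-box in 6 (18.2%) against 6.49%. TATAAA was found in 1, GTF3C3 (3.03%), against 11.1%. Among the 7 components at least 2-fold lower with DRB, 3 held CCAAT (TAF1A, POLR3B and POLR1H), 3 the GC box (POLR1B, POLR3B and SNAPC1), 1 the ETS-type core (POLR1B) and 0 the E-box. The 27305 promoters were not limited to genes measured or kept on these arrays. Their median GC content was 58.0%, against 60.0% for the 33 stretches. These letter matches describe the sequence and were not tested.

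The subunits of polymerase I alone had a median difference of −0.57 with DRB and 2 of 6 at least 2-fold lower, beside a median of 0.05 and 10.2% for all kept genes. POLR1B, the second-largest subunit of the catalytic core, read 8.36 in control, 8.42 with E. coli 83972 and 7.05 with DRB, and was 2.47-fold lower with DRB (−1.30). It had 4 of 6 probe sets past 2-fold and a mean of −1.14 ± 0.43 (SD over 6 probe sets). POLR1H, the RNA cleavage subunit formerly called ZNRD1, read 7.47, 7.41 and 6.46 and was just past 2-fold (−1.02) on its only probe set. For both genes the control and E. coli 83972 arrays were close and the DRB array was low.

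POLR1F, the stalk subunit once named TWISTNB, read 9.05, 9.44 and 8.26. It differed by −0.79 with DRB, but its other probe sets lay at −1.31 and −1.43, and the mean was −1.17 ± 0.34 (SD over 3 probe sets). POLR1A, the largest subunit, read 7.23, 7.27 and 7.25, a spread smaller than the technical error. POLR1E and POLR1G, the PAF53 and PAF49 heterodimer, differed by −0.10 and −0.36 with DRB. Thus the catalytic pair POLR1A and POLR1B stood apart: one was level across arrays and the other was low on the DRB array.

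POLR1C and POLR1D, the assembly pair that polymerases I and III share, were between those extremes. POLR1C read 6.85 in control, 6.73 with E. coli 83972 and 6.49 with DRB, and POLR1D read 8.74, 8.73 and 8.28. Their differences with DRB were −0.37 and −0.45, but the 3 probe sets of POLR1D ranged from −0.45 to 0.14, so its direction depends on the probe set. The other passing probe set of POLR1C differed by −0.88, and the mean was −0.62 ± 0.36 (SD over 2 probe sets).

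On the probe sets chosen, the 6 initiation factors of polymerase I lay below 0 with DRB, with a median of −0.72, and TAF1A alone was past 2-fold. Among all kept genes 44.2% lay below 0 and 10.2% were at least 2-fold lower, with a median of 0.05. RRN3, which tethers polymerase I to the promoter factors, read 7.12, 7.42 and 6.37 (−0.75 with DRB). Its other probe sets lay at −0.12 and −0.13, and it has near-identical pseudogene copies, so its value is uncertain. TAF1B, the selectivity factor subunit related to TFIIB, read 7.39, 7.11 and 6.61 (−0.78), averaging −0.66 ± 0.14 (SD over 3 probe sets). TAF1C differed by −0.69 on the probe set chosen and by 0.06 on its other passing one. TAF1D, whose gene also hosts small nucleolar RNAs, differed by −0.12. UBTF, the HMG-box factor that keeps ribosomal DNA open, differed by −0.25, and its 3 passing probe sets ranged from −0.25 to 0.16. The direction for TAF1C and UBTF with DRB thus depends on the probe set.

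Among polymerase III subunits the 8 kept members had a median of −0.46 with DRB, and 2 were at least 2-fold lower, beside 10.2% of all kept genes. POLR3B, the second-largest subunit, read 7.57 in control, 6.99 with E. coli 83972 and 5.93 with DRB, and was 3.11-fold lower with DRB (−1.63) on its only probe set. Its partner in the active centre, POLR3A, read 5.70, 5.89 and 5.87 (0.18). A second POLR3A probe set of nearly equal brightness differed by −0.85, so the direction for POLR3A is not settled. POLR3E, of the POLR3D and POLR3E pair, read 6.83, 7.18 and 6.01 (−0.81), while POLR3D differed by 0.02 on its brightest probe set and by −0.96 at the lowest of 5. In the initiation subcomplex POLR3C differed by −0.76, averaging −0.72 ± 0.08 (SD over 3 probe sets), beside the lower value of POLR3F.

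POLR3GL, the broadly expressed form of the third subunit in that subcomplex, read 8.26, 7.83 and 8.46. It was slightly higher with DRB (0.20) and lower with E. coli 83972 (−0.43). Neither of the 2 probe sets of its paralogue POLR3G, the form known from stem cells and tumours, reached the filter. POLR3K, the RNA cleavage subunit, differed by −0.17.

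Of the general factors of polymerase III, BDP1 alone was past 2-fold with DRB on the probe sets chosen. Among all kept genes 10.2% were at least 2-fold lower. GTF3A, which binds the 5S genes, read 10.85 in control, 10.60 with E. coli 83972 and 10.98 with DRB (0.13), averaging 0.17 ± 0.03 (SD over 3 probe sets). BRF1, the TFIIIB subunit for 5S and tRNA genes, read 5.47, 5.81 and 5.93 (0.47), the highest difference with DRB among the 36, but only 2 of its 10 probe sets reached the filter. BRF2, its counterpart at U6 and 7SK promoters, was ambiguous. The probe set chosen read 6.55, 6.43 and 6.28 (−0.27), and the other read 6.73, 6.04 and 4.75 (−1.98). The choice by mean over 3 arrays passes over a probe set that is low on one array. Choosing by the control array would make BRF2 the eighth component past 2-fold, beside 10.7% of all kept genes under that choice.

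The 6 subunits of TFIIIC, which recognises the internal promoter of tRNA genes, had a median of −0.22 with DRB and 0 past 2-fold. For all kept genes the median was 0.05, with 10.2% at least 2-fold lower and 0.129% at least 2-fold higher. GTF3C4, the subunit with histone acetyltransferase activity, read 6.91, 7.10 and 5.93 (−0.98), and GTF3C5 read 6.18, 6.33 and 5.50 (−0.68). GTF3C6, the smallest, read 10.09, 9.58 and 9.91 (−0.18). The DNA-contacting GTF3C1 was level (0.10). So on the probe sets chosen the lower values within TFIIIC were those of GTF3C4 and GTF3C5, and the other 4 lay between −0.27 and 0.10. GTF3C5 rests on 1 passing probe set of 2, and the mean over both differed by −0.29, near that range.

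In SNAPc, SNAPC1 was followed by SNAPC4, the large subunit with Myb repeats, which read 7.61, 8.03 and 7.06 (−0.55). SNAPC4 had 6 passing probe sets averaging −0.42 ± 0.24 (SD over 6 probe sets). SNAPC3, the third core subunit, read 7.64, 7.66 and 7.93 (0.29), and SNAPC5 differed by −0.22. The core trio was therefore split with DRB, with SNAPC1 and SNAPC4 low and SNAPC3 not.

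**Figure D2:**
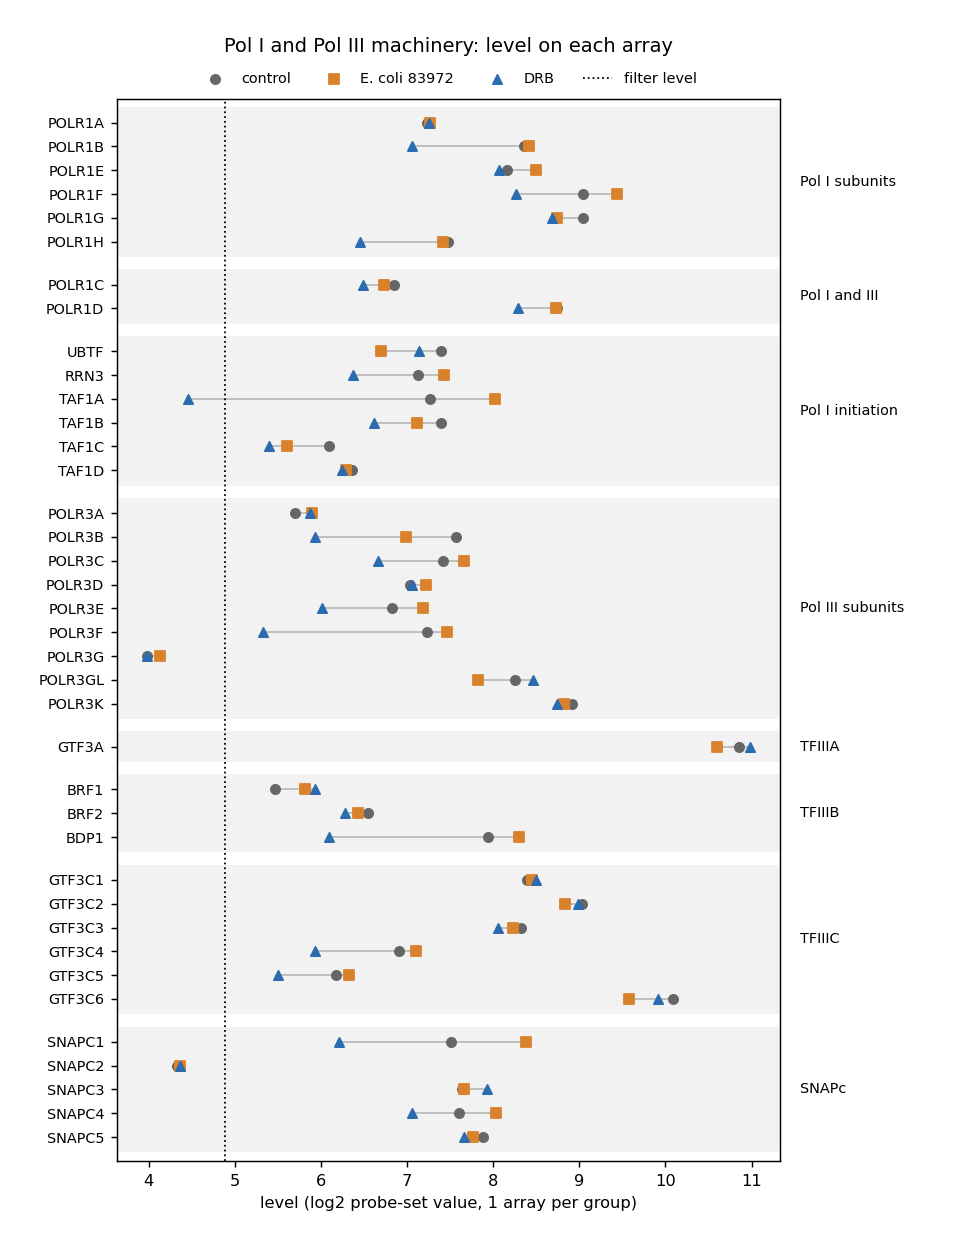
Level of each of the 38 measured components (log2 probe-set value, horizontal axis) on the control (circle), E. coli 83972 (square) and DRB (triangle) arrays, grouped by role; the dotted line is the filter level of 4.88. The DRB triangle lies well left of the other points for TAF1A (4.45), BDP1 (6.09) and POLR3F (5.33), while the 3 points of POLR1A nearly coincide; levels of different genes come from different probes and are not to be compared.

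With E. coli 83972 the largest increases were those of SNAPC1, 1.82-fold (0.87), and TAF1A, 1.68-fold (0.75), and both were under 2-fold. All 4 passing probe sets of TAF1A were higher, averaging 0.82 ± 0.23 (SD over 4 probe sets), and 1 of them just passed 2-fold (1.02 on the log2 scale). Both probe sets of SNAPC1 were higher, averaging 0.65 ± 0.30 (SD over 2 probe sets). These differences exceed the technical error of 0.18, but the 2 genes were picked as the largest increases of the 36. That error does not include culture-to-culture variation. At a lower bar of 1.5-fold, TAF1A and SNAPC1 were the 2 higher components, beside 5.19% of all kept genes, and UBTF the 1 lower component, beside 3.06%.

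UBTF read 7.39 in control, 6.70 with E. coli 83972 and 7.14 with DRB, so the E. coli 83972 array was the low one (−0.69). Its mean over passing probe sets was −0.46 ± 0.25 (SD over 3 probe sets). POLR3B followed at −0.57, GTF3C6 at −0.51, TAF1C at −0.49 and POLR3GL at −0.43. The other passing probe set of TAF1C was at 0.31, so its direction depends on the probe set. BRF2 differed by −0.12 on the probe set chosen, but by −0.69, past 1.5-fold, on its other one. Moderate increases were seen, on the probe sets chosen, for SNAPC4 (0.42, with 1 of its 6 at −0.24), POLR1F (0.39), POLR3E (0.35), BDP1 (0.35), BRF1 (0.35) and POLR1E (0.34). Role by role the medians with E. coli 83972 were 0.05 for polymerase I subunits, −0.17 for its initiation factors, 0.19 for polymerase III subunits, 0.35 for the 3 subunits of TFIIIB, −0.02 for TFIIIC and 0.23 for SNAPc.

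**Figure D3:**
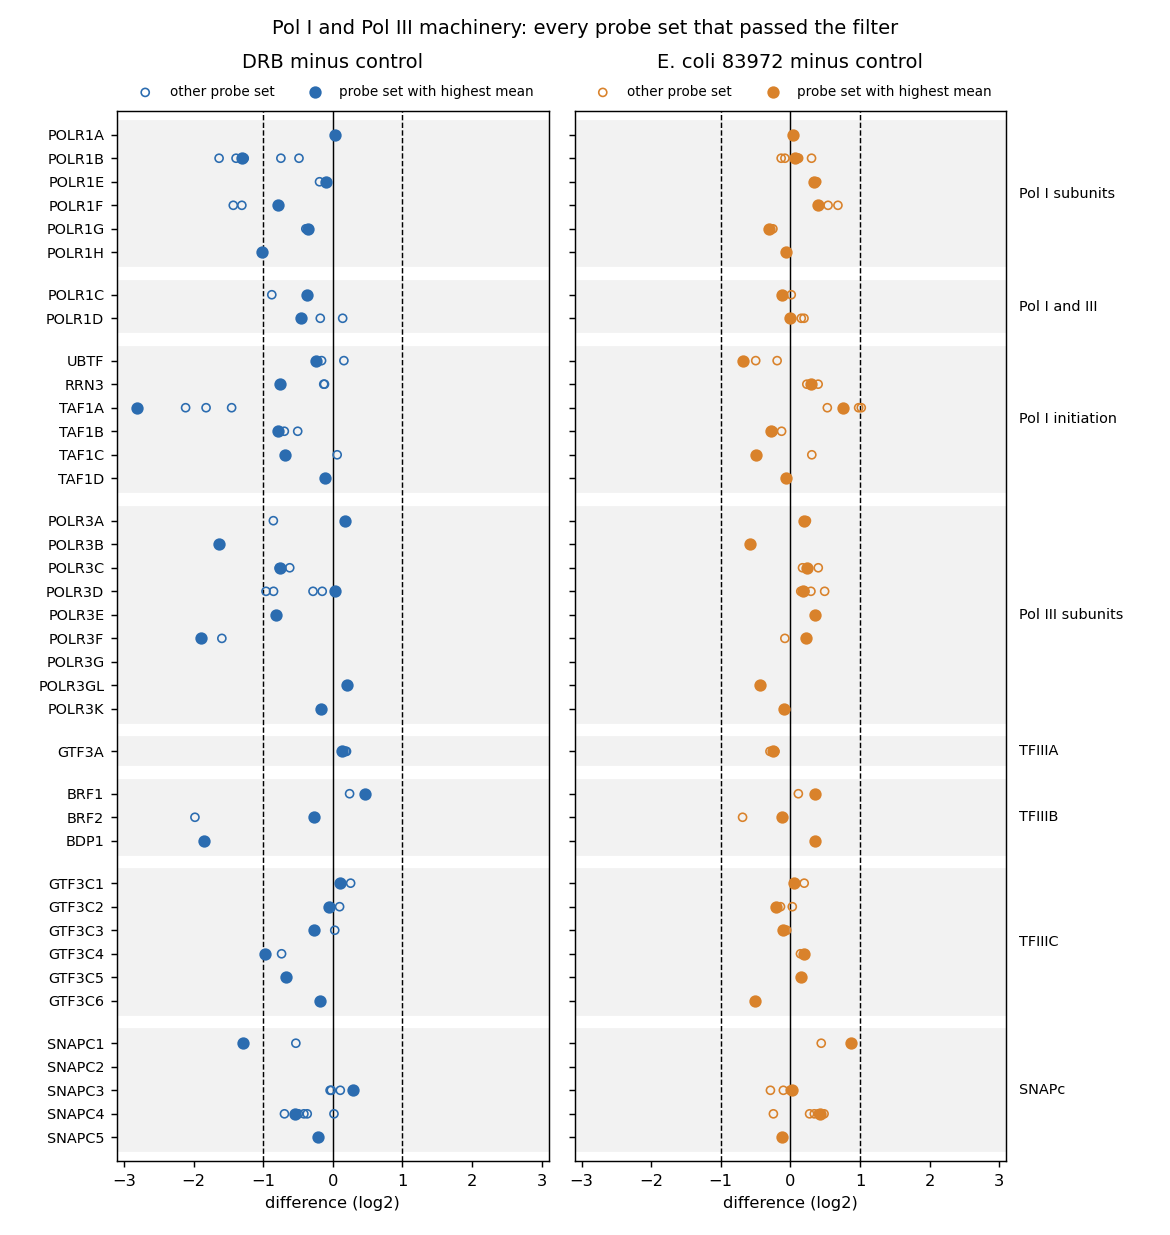
Log2 difference from control (horizontal axis) with DRB (left) and E. coli 83972 (right) for every probe set that reached the filter, with the probe set representing the gene filled and the others open; dashed lines mark 2-fold. The probe sets of TAF1A and POLR3F all lie past the 2-fold line with DRB, whereas those of BRF2 (−1.98 and −0.27) and POLR3A (−0.85 and 0.18) are far apart; with E. coli 83972 a single open point, of TAF1A (1.02), is past 2-fold.

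Compared directly, the DRB array was at least 2-fold lower than the E. coli 83972 array for 10 of the 36 components, beside 12.3% of all kept genes, and at least 2-fold higher for 0, beside 0.386%. TAF1A differed by −3.56, which is 11.8-fold, BDP1 by −2.20, SNAPC1 by −2.16 and POLR3F by −2.12. POLR1B differed by −1.36, POLR1F by −1.18, POLR3E by −1.17, GTF3C4 by −1.16, POLR3B by −1.06 and RRN3 by −1.05. At the other end stood POLR3GL (0.64), UBTF (0.44) and GTF3A (0.38). This comparison shares the DRB and E. coli 83972 arrays with those above, so its values restate theirs in part.

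Counted by probe set rather than by gene, 17 of the 85 passing probe sets were at least 2-fold lower with DRB than control, beside 8.44% of all passing probe sets, and 0 were higher, beside 0.25%. The lower ones belonged to the 7 genes named and to POLR1F and BRF2. With E. coli 83972 against control 0 of 85 were lower, beside 0.587%, and 1 was higher, beside 1.87%. With DRB against E. coli 83972, 25 of 85 were lower, beside 10.9%, and 0 higher, beside 0.521%. At 1.5-fold and by gene, 15 of 36 were lower with DRB than control, beside 18.1% of kept genes, and 0 higher, beside 2.03%. Against E. coli 83972, 14 were lower, beside 19.3%, and 1 was higher (POLR3GL), beside 5.72%. Probe sets of 1 gene share their transcript and are no replicates of it.

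The 5 subunits common to polymerases I, II and III, which the rule leaves out, differed from the specific subunits in their values. POLR2E, POLR2F, POLR2H, POLR2K and POLR2L all lay above 0 with DRB, from 0.06 for POLR2L to 0.29 for POLR2E, with a median of 0.11 and 0 past 2-fold. The 7 subunits of polymerase II alone had a median of −0.05 and 0 past 2-fold, with POLR2D lowest at −0.92. The 16 kept subunits specific to polymerases I and III, or shared by that pair, had a median of −0.41 and 4 past 2-fold, beside 10.2% of all kept genes lower by that much. With E. coli 83972 the medians of these lists were −0.20, −0.16 and 0.05. No test of the differences between lists was made, and all lists were written with earlier results of these data known.

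Among 12 measured regulators and partners, 3 were at least 2-fold lower with DRB, beside 10.2% of all kept genes. TBP, the TATA-binding protein that all 3 polymerases use, read 7.07 in control, 7.21 with E. coli 83972 and 5.75 with DRB (−1.32). TTF1, which terminates polymerase I transcription, read 8.54, 7.93 and 7.23 (−1.31), and BAZ2A, of the nucleolar remodelling complex, read 7.95, 8.57 and 6.86 (−1.09). The repressor of polymerase III MAF1 was level (0.10), and so was SSB, the La protein that binds its transcripts (0.01). MYC, which activates all 3 polymerases, read 9.56, 10.80 and 9.55, and was the only regulator at least 2-fold higher with E. coli 83972 (1.25), beside 1.91% of all kept genes. DDX21, a nucleolar helicase, followed at 0.71. CAVIN1, also known as polymerase I and transcript release factor, was highest with DRB (0.48).

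Genes that process the products of both polymerases were also uneven. Of 29 measured ribosomal RNA processing genes 8 were past 2-fold downward with DRB, beside 10.2% of all kept genes, and 0 upward, beside 0.129%, around a median of −0.18. MPHOSPH10 (−2.02) and IMP3 (−1.73), partners in the U3 particle, and RRS1 (−1.58), needed for the large subunit, were lowest, while the methyltransferase FBL differed by 0.15. Of 15 kept tRNA processing genes 5 were past 2-fold downward, beside the same 10.2% of all, and 0 upward, around a median of −0.43. They were led by the ribonuclease P subunit RPP38 (−1.62), the RNA kinase CLP1 (−1.21) and RPP14 (−1.19). With E. coli 83972 neither list had a gene past 2-fold, beside 0.652% of all kept genes lower and 1.91% higher by that much. The medians were 0.02 and −0.12, against −0.03 for all kept genes, with IMP3 (−0.80) and CLP1 (−0.73) lowest.

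**Figure D4:**
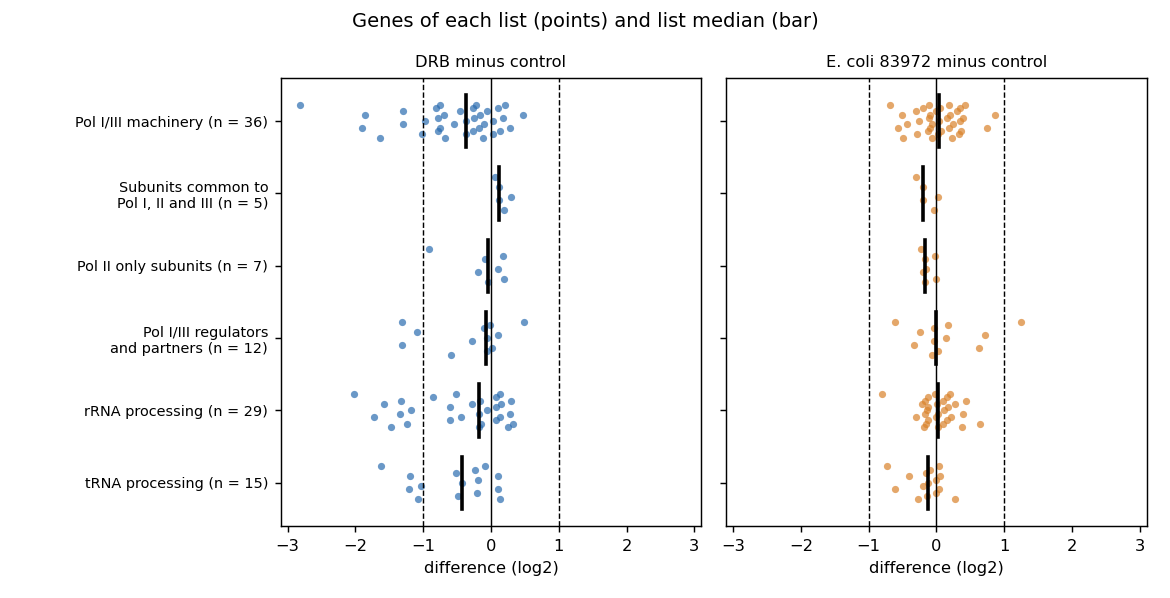
Log2 difference from control (horizontal axis) of each kept gene in the 6 lists, with DRB (left) and E. coli 83972 (right); points are genes, black bars list medians and dashed lines 2-fold. With DRB the list medians run from −0.43 for tRNA processing to 0.11 for the subunits common to all polymerases. With E. coli 83972 only the point of MYC (1.25) is past 2-fold, beside 1.91% of all kept genes higher and 0.652% lower.

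The sorted values of any array pair differed by at most 0.18, so the deposited normalization had brought the arrays to nearly one distribution, and a change common to most transcripts would be reduced by it. Poly-A spike-in probe sets had a median 0.84 higher on the DRB array than on the control array. Centring on them moves every gene down alike: the component median with DRB becomes −1.20, that of all kept genes −0.79, and 25 of the 36 components are at least 2-fold lower, beside 32.7% of all kept genes. The distance between the medians, −0.42, is the same under either scaling by construction. With this centring all 36 components lie below 0, among them GTF3A, which differed by −0.71 with DRB against control. Before it only 2.03% of all kept genes were at least 1.5-fold higher with DRB. Nearly all kept genes thus also lie below 0 with it, so this count is not particular to the components. Of 8 kidney epithelial and renal carcinoma markers 6 were measured and all passed the filter. Among them were KRT18 (11.63 in control), PAX8 (7.07) and, lowest, PAX2 (5.69). Of 10 measured markers of leukocytes, endothelium and fibroblasts 3 passed, and none read above 5.60 on any array.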

How the data were processed

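The arrays were Affymetrix 3′ expression arrays labelled with biotin, 1 per group, per the labels' protocols. The values are the log2 probe-set values that the authors deposited; RMA and Partek made them, per the submitters' processing notes. Their versions, the background correction and the set of arrays normalized jointly are not stated in the sources used here. Groups came from the sample titles. RMA compresses differences of dim probe sets.

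Of 49386 probe sets 45259 had 1 gene symbol in the platform annotation, 1327 had several and named none, and 2800 were not listed. For 45178 probe sets the Entrez identifier gave a current symbol in RefSeq (GRCh38.p14). The members and lists were chosen with earlier results of these data known. Named are components at least 2-fold different in any comparison, up to 3 per role with the largest differences from control, paralogue pairs, and up to 3 genes per other list and comparison; others, such as UBTF, POLR1A, MAF1, SSB and FBL, were named after their values were seen. The calculation, in Python 3.11.15 with pandas 2.3.3, was tested on simulated data. Alternatives changed the probe set, filter, scaling (spike-ins, loess with statsmodels 0.14.6) or fold. With 1 array per group, there is no test and no p-value, and the precision is limited by the number of arrays.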

Additional observations from a re-analysis of the deposited data

How the results depend on the processing

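No paired analysis was possible because each group is 1 array. Values with no replicates were called moved when they shifted by more than the technical error given in the report, and counts when they changed by over 1.5 times. The 7 components at least 2-fold lower with DRB than control became 1 of 9 with plain-suffix probe sets alone, where fewer genes are read (11.6% of all), 25 with poly-A centring (32.7%), 11 with hybridization spike-in centring (14.1%), 15 at 1.5-fold (18.1%) and 17 of 85 when probe sets were counted (8.44%), each beside the share of all genes or probe sets under that setting. The 10 lower with DRB than with E. coli 83972 became 4 of 9 with plain-suffix probe sets (14.4% of all) and 22 with poly-A centring (33.7%). By probe set 25 of 85 were lower (10.9%), and 1 component was higher at 1.5-fold (5.72% of all kept genes). With E. coli 83972 against control, 1 component was lower with hybridization spike-in centring (2.12% of all) and 1 at 1.5-fold (3.06%). At 1.5-fold 2 were higher (5.19% of all), and by probe set 1 was higher at 2-fold (1.87%). The median with DRB against control was −0.75 with plain-suffix probe sets and −1.20 with poly-A centring. The median with DRB against E. coli 83972 was −1.09 with poly-A centring, and that with E. coli 83972 against control turned to −0.30 with hybridization spike-in centring, which shifts all genes alike. For these the cause was not tested. Choosing probe sets by the control array, added after the data were seen, gave 8 lower with DRB than control, with BRF2, beside 10.7% of all kept genes. Of 501 values of named components under the alternatives 403 stayed within the technical error, 98 moved and 0 of those past 2-fold changed sign. Part of this tally was fixed in advance. The filter settings leave the value of a kept gene unchanged, and spike-in centring shifts all genes alike. Among the 7, BDP1 and SNAPC1 fell under 2-fold with the mean over probe sets, and the other 5 stayed past it wherever the alternative gave a value. POLR1H and POLR3B have 1 probe set each, so for them a change of probe set or filter could not alter the value. The other scalings lowered it, so for these genes this is no check. Dim probe sets limit the size for TAF1A on the DRB array.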
